A study of Homo sapiens with 12 samples.

Results

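Genes of very large cytoskeletal and scaffold proteins, 8 in all, are described here across the 12 arrays of a study of BET inhibition in 2 human triple-negative breast cancer cell lines. They are the plakins EPPK1, PLEC, PPL and EVPL, the spectraplakins MACF1 and DST, and the giant proteins AHNAK and AHNAK2. The members were chosen by gene name, as EPPK1 and its relatives, and EPPK1 was selected on its measured log2 change with JQ1 on these same arrays. All 8 listed genes were measured, among 14884 genes tested, each by 1 transcript cluster. Since EPPK1 was picked for its JQ1 change, and the list was drawn up with results of the JQ1 comparisons known, the JQ1 changes of the members are given with their errors as a description and without p-values.

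Plakins are cytolinkers: they tie intermediate filaments, actin and microtubules to each other and to cell junctions. Plectin and the epithelial form of dystonin anchor keratin filaments at hemidesmosomes, where epithelial cells grip the basement membrane, and desmoplakin does so at desmosomes, the junctions between cells. Envoplakin and periplakin are partners in the cornified envelope of stratified epithelia, and spectraplakins join actin to microtubules. The AHNAK proteins are not plakins; they are built largely of repeats and lie beneath the plasma membrane, where AHNAK binds annexin A2 and S100A10.

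MDA-MB-231 and HCC70 cells received JQ1 at 500 nM or, as the vehicle, DMSO at 0.1%, and RNA was taken at 72 hours (150 ng labelled per array), with 4 groups of 3 Human Gene 2.0 ST arrays. MDA-MB-231 is a mesenchymal-like line and HCC70 a basal epithelial one. JQ1 is a small molecule that keeps BET proteins, readers of acetylated histones, off chromatin. Nothing in the labels shows that arrays of the same group are separate cultures, so errors and p-values reflect the spread of these samples alone, which may be technical. In RNA from a whole culture a change in the share of cells and one in RNA per cell cannot be told apart. All values are log2 signals as deposited. A standard deviation (SD) is that of 3 arrays, a standard error (SE) and a 95% interval are those of the limma fit to all 12 arrays, and a gene is said to rise, fall or be called where its limma adjusted p over all 14884 genes was under 0.05.

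Treatment and line labels were checked on other genes. BRD2 and HEXIM1 rose and MYC fell with JQ1 in both lines, although a second, dimmer HEXIM1 cluster differed by -0.55 in HCC70. In vehicle, the 3 epithelial markers measured (EPCAM, KRT5 and KRT14) were higher in HCC70 and the 4 mesenchymal markers measured (VIM, ZEB1, FN1 and AXL) higher in MDA-MB-231. Of 5 stromal, endothelial and adipocyte markers, 3 (PECAM1, DCN and LUM) had levels under the lower quartile of genes in every group. Marker levels also moved with JQ1. The mean log2 level of the 3 epithelial markers was 5.22 to 5.98 on the vehicle arrays of MDA-MB-231 and 4.69 to 5.03 on its JQ1 arrays, where 1 of the 3, EPCAM, fell; in HCC70 it was 8.23 to 8.56 and 7.96 to 8.27, and KRT14 fell (-1.03). That of the 4 mesenchymal markers was 10.47 to 10.64 and 10.08 to 10.22 in MDA-MB-231, where FN1 fell (-1.40), and 6.60 to 6.63 and 5.29 to 5.53 in HCC70, where VIM and FN1 fell. The only blood marker measured, CSF1R, fell in MDA-MB-231 (-0.45). The part of these markers in the members' values was not tested. Array medians lay between 6.16 and 6.26, and arrays of 1 group correlated at r = 0.989 to 0.995. The medians followed the treatment: every JQ1 array (at most 6.19) lay below every vehicle array (at least 6.22), which bears on small changes.

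With JQ1, EPPK1, PLEC, PPL and AHNAK2 rose in both lines, AHNAK rose in MDA-MB-231 and MACF1 in HCC70, and EVPL and DST passed in neither. No member fell. The largest changes were those of EPPK1 in HCC70, 3.90-fold, and of AHNAK2 in MDA-MB-231, 3.53-fold. In MDA-MB-231 5 of the 8 members were called, where 27.8% of all genes were called, 10.8% upward and 17.0% downward. In HCC70 5 of 8 were called, where 21.7% of all genes were, 9.18% upward and 12.5% downward. Without EPPK1 the counts were 4 of 7 in each line. All 8 members were among the 7442 genes above the median level, and calls were more frequent among such genes. Fitted alone, 3783 of the 7442 were called in MDA-MB-231, 1424 upward and 2359 downward. In HCC70 3269 were called, 1596 upward and 1673 downward. EVPL was then also called downward in MDA-MB-231 (-0.25). The median log2 change of the 8 genes was 0.53 in MDA-MB-231 and 0.38 in HCC70, beside 0.02 and 0.01 over all genes. Because the members were chosen with these comparisons in view, the counts describe the list and support nothing further. With each array centred on its median the upward share of all genes became 14.7% in MDA-MB-231 and 12.9% in HCC70.

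**Figure D1:**
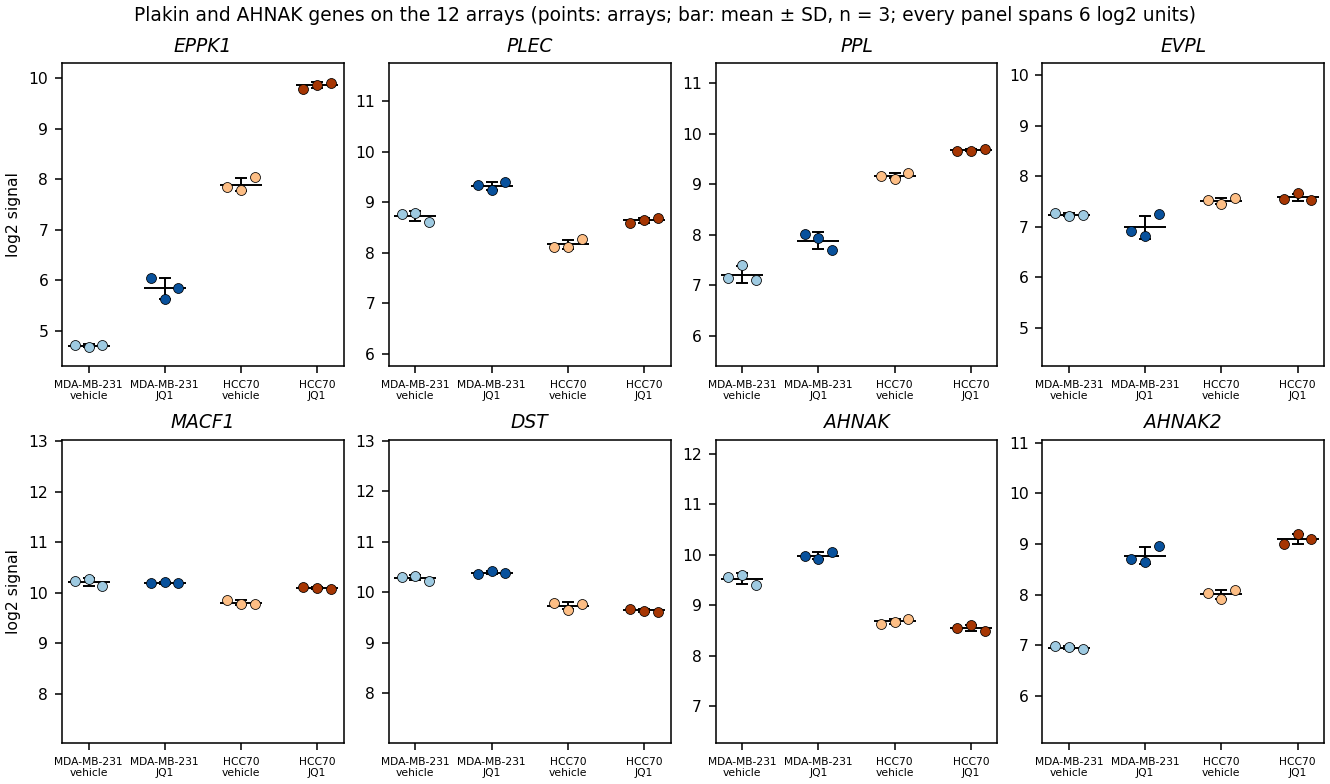
Log2 signal (vertical axis) of the 8 genes in the 4 groups (horizontal axis), with 1 point per array and the mean ± SD of 3 arrays; every panel spans the same height. The JQ1 arrays of EPPK1, PLEC, PPL and AHNAK2 lie above the vehicle arrays of the same line. Those of AHNAK and, narrowly, DST do so in MDA-MB-231 only, and those of MACF1 in HCC70 only.

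EPPK1 encodes epiplakin, a plakin made almost wholly of plakin repeat domains that binds keratins in simple and stratified epithelia. In HCC70 its vehicle arrays read 7.85, 7.79 and 8.04 and its JQ1 arrays 9.79, 9.86 and 9.91, so that the highest vehicle array lay far below the lowest JQ1 array. The change was 1.96 ± 0.11 (SE; 95% interval 1.73 to 2.20), the 6th largest rise of all genes in that line. In MDA-MB-231 the vehicle arrays read 4.71, 4.68 and 4.72, below the lower quartile of the genes (4.78), and the JQ1 arrays 6.05, 5.62 and 5.84. The 3 JQ1 arrays all lay above the vehicle arrays but were more scattered (SD 0.21 against 0.022). The change of 1.13 ± 0.11, 2.19-fold, starts from such a low level that it is read as a lower bound. The excess of the HCC70 change over the MDA-MB-231 change, 0.83 ± 0.15, is for the same reason read as an upper bound.

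PLEC encodes plectin, the plakin that links keratin, vimentin, actin and microtubules and binds integrin beta-4 at hemidesmosomes. Its MDA-MB-231 arrays read 8.77, 8.80 and 8.61 in vehicle and 9.35, 9.24 and 9.40 with JQ1. In HCC70 they read 8.11, 8.13 and 8.27 in vehicle and 8.59, 8.66 and 8.69 with JQ1. The groups did not overlap in either line, and the changes were 0.60 ± 0.086 (1.52-fold) and 0.48 ± 0.086 (1.39-fold). They differed between the lines by -0.13 (95% interval -0.39 to 0.14), which was not called, and which leaves room for a difference of up to 0.39 in favour of MDA-MB-231.

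EPPK1 and PLEC are neighbours on chromosome 8, with no other gene between them in the RefSeq gene table. Of the other genes within 5 places of either, 4 were measured: PUF60, a splicing factor, NRBP2, a pseudokinase, the microRNA gene MIR661 and SPATC1, a centrosomal protein. MIR661 lies within PLEC, so that its signal and that of PLEC transcripts may not be separable. By limma 0 of these 4 were called with JQ1 in either line, where 27.8% (MDA-MB-231) and 21.7% (HCC70) of all genes were called. So few genes cannot show a lack of response around EPPK1 and PLEC. At an unadjusted p under 0.05 the count was 1 in MDA-MB-231 and 0 in HCC70. PUF60 differed by -0.05 in MDA-MB-231 and 0.00 in HCC70, and NRBP2, the measured gene nearest to EPPK1 on its other side, by -0.06 and 0.18. MIR661 differed by 0.11 and -0.06. The largest value among them was that of SPATC1 in MDA-MB-231, 0.33 (95% interval 0.046 to 0.62).

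**Figure D2:**
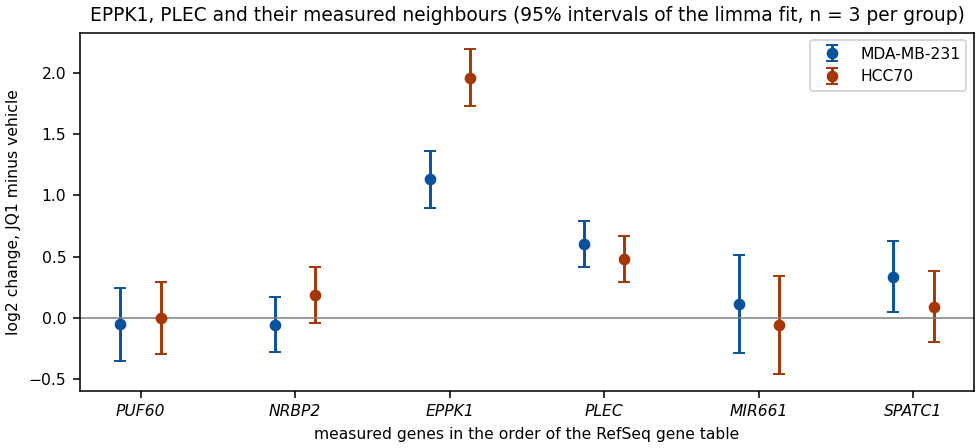
Log2 change with JQ1 (vertical axis) and its 95% interval for EPPK1, PLEC and their 4 measured neighbours, in the order of the RefSeq gene table (horizontal axis); blue is MDA-MB-231 and brown HCC70. EPPK1 and PLEC stand above 0 in both lines, and the intervals of the others span 0 except that of SPATC1 in MDA-MB-231.

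PPL encodes periplakin, which binds intermediate filaments through its short tail and pairs with envoplakin. In MDA-MB-231 it read 7.14, 7.40 and 7.10 in vehicle and 8.01, 7.95 and 7.70 with JQ1. In HCC70 it read 9.17, 9.12 and 9.22 in vehicle and 9.67, 9.66 and 9.70 with JQ1. The JQ1 arrays lay above the vehicle arrays in both lines, by 0.67 ± 0.10 (1.59-fold) and 0.51 ± 0.10 (1.42-fold). The difference between the lines was -0.16 (95% interval -0.48 to 0.15) and was not called.

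EVPL, for envoplakin, the partner of periplakin, did not share this pattern in the calls. In HCC70 it read 7.53, 7.44 and 7.57 in vehicle and 7.55, 7.67 and 7.53 with JQ1, and the groups overlapped, with a change of 0.07 ± 0.11. In MDA-MB-231 it read 7.27, 7.22 and 7.23 in vehicle and 6.92, 6.81 and 7.25 with JQ1. There, 2 JQ1 arrays were below all vehicle arrays and JQ1 replicate 3 was among them, and the value of -0.25 ± 0.11 was not called. Without JQ1 replicate 3 it was -0.38 and was called downward. DSP, for desmoplakin, the plakin of desmosomes and not a member of the list, was not called in either line, with values of 0.17 ± 0.077 in MDA-MB-231 and -0.07 ± 0.077 in HCC70. Its JQ1 arrays lay just above the vehicle arrays in MDA-MB-231 and just below them in HCC70, where its sign turned (0.0032) with arrays centred on their medians; in MDA-MB-231 it was called upward with that centring (0.24).

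MACF1 and DST are the spectraplakins. MACF1, which guides microtubules along actin towards adhesions, read 9.86, 9.78 and 9.79 in vehicle-treated HCC70 and 10.13, 10.09 and 10.08 with JQ1, a rise of 0.29 ± 0.074 (1.22-fold) with no overlap. This call ended without HCC70 vehicle replicate 2. In MDA-MB-231 it read 10.25, 10.28 and 10.13 in vehicle and 10.19, 10.22 and 10.19 with JQ1, and the 3 JQ1 arrays fell within the vehicle range. The change there was -0.02 (95% interval -0.18 to 0.14), and turned to 0.05 with arrays centred on their medians. The difference between the lines, 0.31 ± 0.10, was not called.

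DST encodes dystonin, whose epithelial form is the hemidesmosomal antigen BPAG1e and whose other forms are spectraplakins; 1 transcript cluster cannot tell these forms apart. It read 10.31, 10.33 and 10.23 in vehicle and 10.37, 10.42 and 10.39 with JQ1 in MDA-MB-231, and 9.79, 9.65 and 9.76 in vehicle and 9.67, 9.64 and 9.62 with JQ1 in HCC70. The values of 0.10 (95% interval -0.06 to 0.26) and -0.09 (-0.25 to 0.07) were not called. In MDA-MB-231 the arrays of the 2 treatments did not overlap all the same, whereas in HCC70 they did.

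The 2 AHNAK genes parted. AHNAK2 rose strongly in both lines. In MDA-MB-231 it read 6.97, 6.96 and 6.92 in vehicle and 8.70, 8.64 and 8.96 with JQ1, a change of 1.82 ± 0.098 (3.53-fold) and the 10th largest rise of all genes in that line. In HCC70 it read 8.02, 7.91 and 8.08 in vehicle and 9.01, 9.20 and 9.10 with JQ1, a change of 1.10 ± 0.098 (2.14-fold). The change was larger in MDA-MB-231, where the vehicle level was lower: the difference of the effects was -0.72 ± 0.14 (95% interval -1.02 to -0.42) and was called, beside 15.0% of all genes called for that difference, 9.02% toward HCC70 and 5.95% toward MDA-MB-231.

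AHNAK rose in MDA-MB-231 from 9.56, 9.61 and 9.40 in vehicle to 9.98, 9.91 and 10.06 with JQ1, by 0.46 ± 0.084 (1.38-fold). In HCC70 it read 8.63, 8.67 and 8.73 in vehicle and 8.55, 8.61 and 8.49 with JQ1, where all JQ1 arrays were the lower ones but the value, -0.13 ± 0.084, was not called. The difference of the effects, -0.59 ± 0.12 (95% interval -0.85 to -0.33), was called. AHNAK, AHNAK2 and EPPK1 were the 3 members whose difference was called. For EPPK1, chosen on its HCC70 change and with a difference read as an upper bound, the call is a description only. It does not show that the lines differ.

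Promoter sequences are shown for this pair, since it holds a member that rose in both lines and one that rose in a single line. The RefSeq promoter table (GRCh38.p14) held 4 of the 8 members, AHNAK, AHNAK2, MACF1 and DST, and listed AHNAK2 at 2 start sites. Each line below gives the 250 bases before a start, 5′ to 3′ on the gene's minus strand, at chr14:104978375-104978624 and chr14:104970508-104970757 for AHNAK2 and chr11:62545827-62546076 for AHNAK. Capitals mark the GC box GGGCGG or its reverse complement, the one motif of those searched that was found in them.
AHNAK2, first start: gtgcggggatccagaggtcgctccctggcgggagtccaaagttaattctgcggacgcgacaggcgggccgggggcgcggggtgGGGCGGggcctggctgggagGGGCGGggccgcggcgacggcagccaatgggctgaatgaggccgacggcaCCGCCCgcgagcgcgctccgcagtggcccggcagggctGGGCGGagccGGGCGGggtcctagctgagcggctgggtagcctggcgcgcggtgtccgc
AHNAK2, other start: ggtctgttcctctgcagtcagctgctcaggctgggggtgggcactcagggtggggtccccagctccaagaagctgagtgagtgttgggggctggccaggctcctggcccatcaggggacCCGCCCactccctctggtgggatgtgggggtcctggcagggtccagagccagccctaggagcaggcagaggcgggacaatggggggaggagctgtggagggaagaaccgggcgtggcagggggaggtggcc
AHNAK, its start: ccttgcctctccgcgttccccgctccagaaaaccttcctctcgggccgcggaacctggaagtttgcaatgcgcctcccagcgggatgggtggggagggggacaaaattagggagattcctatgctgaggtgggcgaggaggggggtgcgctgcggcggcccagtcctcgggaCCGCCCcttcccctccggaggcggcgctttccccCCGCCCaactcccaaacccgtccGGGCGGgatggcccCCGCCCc

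On both strands, the first AHNAK2 window held 5 GC boxes, the other AHNAK2 window 1 and the AHNAK window 4, and 42.6% of the 35116 windows of this length in the table held at least 1. The first AHNAK2 window was 77.2% G and C with 33 CpG dinucleotides and the AHNAK window 70.0% with 22, above the medians of all windows (58.0% and 11). The other AHNAK2 window was also above the median in G and C (68.8%) but below it in CpG (4). None of the 3 windows held the letters searched for AP-1 (TGANTCA, in 6.57% of all windows), TEAD factors (GGAATG, 11.9%), an E-box (CACGTG, 6.34%) or a TATA box (TATAAA, 10.7%). These are matches of letters, not sites shown to be bound, and which start is used in these cells was not measured.

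The vehicle-treated lines already differed in 7 of the 8 members (limma adjusted p under the threshold), where 47.0% of all genes were called, 23.8% higher and 23.2% lower in HCC70. The rule did not use this comparison, although it shares its vehicle arrays with the JQ1 comparisons. EPPK1, PPL and AHNAK2 were higher in HCC70, and PLEC, MACF1, DST and AHNAK higher in MDA-MB-231. EPPK1 was higher by 3.18 ± 0.11, at least 9.09-fold since the MDA-MB-231 level was so low (limma adjusted p = 1.1e-10). PPL was higher by 1.96 ± 0.10, 3.88-fold (limma adjusted p = 5.7e-09), and AHNAK2 by 1.05 ± 0.098, 2.08-fold (limma adjusted p = 1.15e-06). The 3 vehicle arrays of one line lay wholly above those of the other for each of these genes.

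The genes higher in MDA-MB-231 differed less. AHNAK was lower in HCC70 by 0.84 ± 0.084 on the log2 scale, with a limma adjusted p of 2.2e-06. DST and PLEC were each lower in HCC70 by 0.56, with limma adjusted p = 3.2e-05 and 0.00012, and MACF1 by 0.41, with limma adjusted p = 0.00043. EVPL was 0.27 ± 0.11 higher in HCC70 and just missed the threshold (limma adjusted p = 0.052), though its vehicle arrays did not overlap. DSP was higher in HCC70 by 1.22 ± 0.077 (limma adjusted p = 2.9e-08). Neither the cytolinkers nor the AHNAK genes therefore followed a single order between the lines.

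The levels of the lines under JQ1 can be set beside those in vehicle. EPPK1 was 4.02 higher in HCC70 with JQ1, against at least 3.18 in vehicle, so whether the gap widened cannot be told. AHNAK2 was 0.33 higher with JQ1, against 1.05 in vehicle. AHNAK was 1.43 lower in HCC70 with JQ1, against 0.84 lower in vehicle. These values restate the differences of the JQ1 effects given above.

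**Figure D3:**
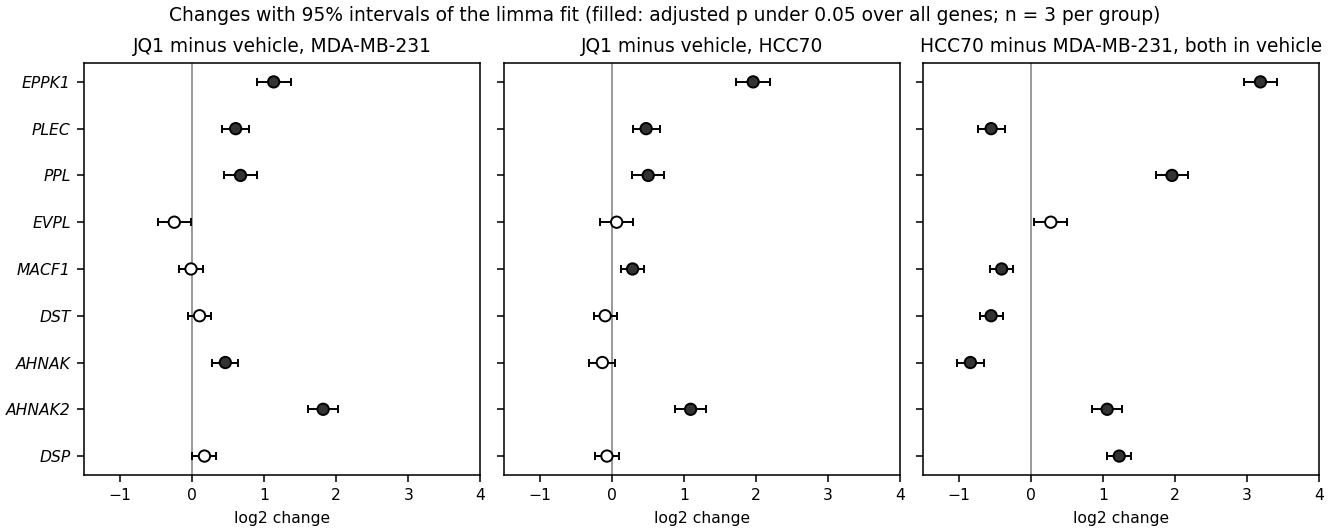
Log2 change (horizontal axis) with its 95% interval for the 8 members and DSP (vertical axis) with JQ1 in MDA-MB-231, with JQ1 in HCC70 and between the vehicle-treated lines; filled points passed an adjusted p of 0.05. With JQ1 the filled points all lie to the right of 0, while between the lines they lie on both sides.

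Partners of the plakins are given by list, beside shares over all genes of 10.8% higher and 17.0% lower with JQ1 in MDA-MB-231 and 9.18% and 12.5% in HCC70. The desmosome list holds the junction proteins that DSP connects to keratin. Of its 9 measured genes, 1 rose with JQ1 in MDA-MB-231, PKP2 (0.52 ± 0.083), and 4 fell in HCC70, among them the desmosomal cadherins DSG3 (-1.64 ± 0.14) and DSC2 (-0.82 ± 0.12); its median change was 0.14 and -0.10. Of 12 measured cornified envelope genes, whose products are cross-linked onto a scaffold that envoplakin and periplakin help to lay down, 1 rose and 1 fell in MDA-MB-231, and 1 rose and 3 fell in HCC70. SPRR1A, SPRR1B and SPRR2D lay below the lower quartile in every group, and SCEL, TGM5 and CSTA in both MDA-MB-231 groups. A fall from such levels would be hard to see. CNFN rose in both lines (0.38 and 0.47), FLG, for filaggrin, fell in MDA-MB-231 by 1.71 ± 0.092, and the transglutaminase TGM5 (-2.45) and the protease inhibitor CSTA (-1.66) fell in HCC70 to levels below the lower quartile, so that both falls are lower bounds in size.

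Intermediate filament genes, among them those of the keratins and vimentin that plakins bind, went both ways: of 11 measured, 4 rose and 1 fell in MDA-MB-231, and 3 rose and 3 fell in HCC70. The list also holds the lamin genes LMNA and LMNB1, and LMNB1 was among the falls in each line. KRT18 rose in both lines (0.59 ± 0.091 and 0.85 ± 0.091), KRT7 rose in MDA-MB-231 (1.37 ± 0.093; 0.20 in HCC70, not called) and KRT8 in both (0.37 and 0.45). A second, dimmer KRT18 cluster differed by 0.20 in MDA-MB-231 and 0.59 in HCC70. The lamin LMNB1 fell in both (-2.31 and -1.06), and VIM, for vimentin, fell in HCC70 by 1.72 ± 0.11, with its other clusters at -0.65 and -0.88. In MDA-MB-231 VIM was not called (0.15), while its other clusters differed by 0.72 and 0.89. The only hemidesmosome gene measured of 7 listed, CD151, rose by 0.30 ± 0.085 in MDA-MB-231 and was not called in HCC70 (0.22).

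Of 6 measured genes of microtubule-end proteins, which spectraplakins meet at growing microtubules, 4 fell in MDA-MB-231, led by CLIP1 (-0.64 ± 0.079) and CKAP5 (-0.53 ± 0.073), and CLIP2 rose (0.49 ± 0.098). By limma 0 of the 6 were called in HCC70, and 1 at an unadjusted p under 0.05. Of 3 measured genes that carry the GAS2 domain of the spectraplakins, GAS2L3 fell in MDA-MB-231 (-1.46 ± 0.12) and 0 were called by limma in HCC70, against 1 at an unadjusted p under 0.05. Of 5 measured partners and kin of AHNAK, 0 were called by limma in MDA-MB-231 (0 at an unadjusted p under 0.05), and ANXA2, for annexin A2, rose in HCC70 (0.37 ± 0.078), the line in which AHNAK was not called. At an unadjusted p under 0.05 the HCC70 count was 3, ANXA2 with S100A10 (0.28) and MYOF (0.19).

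**Figure D4:**
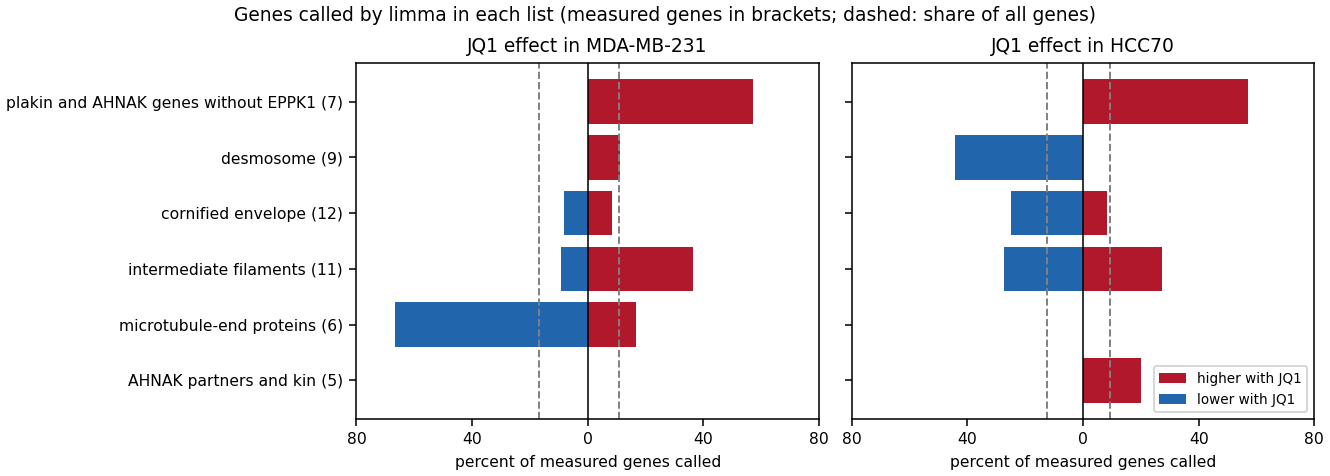
Percent of the measured genes of each list (vertical axis, number measured in brackets) that limma called higher (red, to the right) or lower (blue, to the left) with JQ1 in MDA-MB-231 and in HCC70; dashed lines give the shares over all genes. The plakin and AHNAK genes other than EPPK1 have calls to the right only, while the desmosome list has calls to the left only in HCC70.

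The genes whose 12 values, each centred on its own mean, lay closest to those of a member were taken as the most similar in pattern. For EPPK1 these were PCSK5, a proprotein convertase, at a root-mean-square difference of 0.44 log2 units, ENPP5 at 0.51 and the unconventional myosin MYO1D at 0.57. PCSK5 matched the EPPK1 change in HCC70 (1.97) but not in MDA-MB-231 (0.15), whereas MYO1D matched that in MDA-MB-231 (1.06) but not in HCC70 (0.51), and ENPP5 had 0.67 and 0.78. Likeness over the 12 arrays weighs the gap between the lines as well as the JQ1 changes. For AHNAK2 they were the lysosomal protease LGMN (0.22), the reductase DCXR (0.23) and the carboxypeptidase CPA4 (0.26), all of which had log2 changes of over 1 in both lines. For PPL they were CCNYL1 (0.17), DKFZP586I1420 (0.18) and the transcription factor GATA2 (0.18).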

How the data were processed

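The deposited table holds log2 signals of 53617 transcript clusters on 12 arrays. Per the submitters' processing notes the authors used RMA, oligo and limma (no versions listed); their genome build was not stated there. Per the platform annotation 16098 clusters had 1 gene symbol, 0 several and 37519 none. For the 779 genes with several clusters the brightest was kept, leaving 14884 genes; dim genes were kept, and a change from or to a level below the lower quartile is read as a bound.

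One model of the 4 group means was fitted (limma 3.58.1 under R 4.3.3, with lmFit and eBayes), using two-sided tests, Benjamini-Hochberg adjustment over all genes and a threshold of 0.05. The fit was also run on simulated arrays with known changes. Those arrays were independent of each other and took their spread from these data, so they say nothing on pairing. The number of arrays limits the precision. At most 0.229% of values were identical between any pair of arrays.

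Genes named are the members, DSP, up to 2 called genes of smallest p per direction of each partner list, the 3 nearest profiles of EPPK1, AHNAK2 and PPL, and neighbours within 5 places of EPPK1 or PLEC. Members and lists were chosen with earlier results of these data known.

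In MDA-MB-231 deviations of vehicle and JQ1 arrays from their group means correlated at r = 0.121 to 0.362 for the same replicate number. For different numbers r was -0.250 to 0.121, so the ranges met, and the numbers may or may not mark pairs. In HCC70 r was -0.059 to 0.070 for the same number. The main fit used group means without pairs, so its errors and calls ignore any pairing. Replicate numbers entered only in the replicate blocks. Alternatives were the replicate block, each line alone, a variance trend, the brighter genes only (above the median), all clusters, cluster means, quantile normalization, centring, array weights and leaving out each array.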

Additional observations from a re-analysis of the deposited data

Results flagged for a closer look

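The difference between the lines in the JQ1 effect was called by limma for 15.0% of all genes, and for the genes below. Values are the HCC70 effect minus the MDA-MB-231 effect on the log2 scale. Among the 8 members it was called for 3, which is given as a description, since the list was drawn up with the JQ1 changes known: -0.72 for AHNAK2, -0.59 for AHNAK and 0.83, an upper bound, for EPPK1.

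Of the other genes on the lists, the measured neighbours of EPPK1 and PLEC, and the genes of nearest pattern to EPPK1, AHNAK2 and PPL, 24 were called for the difference. The lists were chosen with earlier results known and the nearest patterns on these same arrays. The count of 24 is therefore not set against the share over all genes. Of 12 measured cornified envelope genes, those called differed by 1.60 (FLG), -2.17 (TGM5) and -1.65 (CSTA). Of 9 measured desmosome genes, those called differed by -1.65 (DSG3), -0.92 (PKP1), -0.83 (DSC3), -0.56 (DSC2) and -0.46 (PKP2). In MDA-MB-231 TGM5, CSTA, DSG3, DSC3 and DSC2 were under the lower quartile both in vehicle and with JQ1, so a fall there would be hard to see, and TGM5 and CSTA also ended below it in HCC70.

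Among 11 measured filament genes the called values were 1.25 for LMNB1, 0.46 for LMNA, -1.87 for VIM and -1.18 for KRT7. Among 6 measured microtubule-end genes they were 0.68 for CLIP1, 0.50 for CKAP5 and -0.53 for CLIP2. Among 3 measured GAS2 genes the called value was 1.11 for GAS2L3. Of 5 measured partners and kin of AHNAK, ANXA2, for annexin A2, differed by 0.42 and MYOF by 0.33. Of the check genes, MYC differed by -0.51, EPCAM by 2.00 and FN1 by -1.72. Of the genes of nearest pattern, PCSK5, also below the lower quartile in both MDA-MB-231 groups, differed by 1.82, MYO1D by -0.55 and CCNYL1 by -0.61. Groups of 3 arrays are too small for a formal test of single outlying arrays, though each array was left out in turn.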

How the results depend on the processing

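Since the members were chosen with the JQ1 results known, their calls under alternatives are a description and lend those calls no further support. Over all alternatives, EPPK1, PLEC, PPL and AHNAK2 in both lines and AHNAK in MDA-MB-231 kept their direction and side of the threshold. The calls of EPPK1, AHNAK and AHNAK2 for the difference of the JQ1 effects also kept their direction and their side of the threshold. For EPPK1 that difference stays an upper bound, so its call does not show that the lines differ. Of 801 values of the members and DSP under an alternative, 775 did so, 21 passed the threshold only under the alternative, 1 no longer passed it (MACF1 in HCC70 without vehicle replicate 2, 0.28) and 4 that were never called changed sign; those that passed only under an alternative were values of DSP, EVPL and the MACF1 difference. With all transcript clusters 7496 were called in MDA-MB-231, 4984 in HCC70 and 15776 between the vehicle-treated lines, where more features were tested, and with array weights 5110 genes were called in HCC70, in place of 4139, 3229 and 7000 genes. The cause of the rise with array weights was not tested. Leaving out 1 array gave 3355 to 4236 calls in MDA-MB-231, 2506 to 3359 in HCC70, 1748 to 2376 for the difference of the effects (2228 with all arrays) and 6383 to 7100 between the lines. The replicate block over all arrays gave 4376 calls (MDA-MB-231), 3409 (HCC70), 2375 (difference of the effects) and 7241 (lines), and with the replicate block within each line, added after seeing the data, 4210, 3236 and 2171; neither block changed a call of a member. Leaving out the 3 arrays numbered 3 of both MDA-MB-231 groups and HCC70 JQ1, also added later, gave 3898, 3253, 2247 and 7332 calls, and EVPL was then called. Those 3 arrays were picked because they correlated least with their groups. Centring moved the share of falls among the calls from 61.2% to 48.9% in MDA-MB-231 and from 57.7% to 43.9% in HCC70. Signals near the lower quartile limit what can be read from EPPK1 in MDA-MB-231.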
